A study of Mus musculus with 2 samples.

Results

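The genes described here are the Hox genes of the 4 mouse clusters, HoxA on chromosome 6, HoxB on chromosome 11, HoxC on chromosome 15 and HoxD on chromosome 2. They were taken as every non-control probe whose gene name on the array is Hox, a cluster letter from a to d and a paralogue number, which gave 50 probes for 38 genes, out of 41084 probes usable on both arrays and 19698 genes with a RefSeq name. The samples were NIH3T3 cells, a mouse embryonic fibroblast line. A first group was stably transfected with the pcDNA3.1-MARVELD1 plasmid, which carries a gene of the MARVEL-domain family of membrane proteins, and the second with the pcDNA3.1 vector alone. Both plasmids were transfected into the same parent line and the lines were selected with G418, and whether each line is a clone or a pool is not given in the sources used here. Total RNA of each group was hybridised to 1 single-colour Agilent whole-genome array, so there are no replicates and no test, standard error or p-value is given.

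Hox genes encode homeodomain transcription factors that give cells along the head-to-tail and limb axes their positional identity. Within a cluster they lie in the order in which they are used: low paralogue numbers are active early and in anterior tissue, high numbers late and in posterior tissue or at the tips of the limbs. Adult and cultured fibroblasts keep a Hox pattern of the body site they came from. Polycomb complexes keep the unused Hox genes silent and trithorax complexes keep the used ones active.

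The probes that carry the main differences are shown first. Each probe is 60 bases long and is written 5′ to 3′ as in the deposited files, whose coordinates are on build mm9. For probes that may lie in an untranslated region, the first 30 bases are given, since an annotation of mm9 was not used here and it is not known which exon or untranslated part a probe reads. They are the probes of the 5 genes that were at least 2-fold higher on the array labelled MARVELD1.
Hoxd11 (chr2:74522028-74522087, first 30 bases): gagtttttctttaatgtatacataaacaaa
Hoxd12 (chr2:74513174-74513233, first 30 bases): tatgtgggctcgcttctgaatttacagtca
Hoxd13 (chr2:74509248-74509307, first 30 bases): aaatgttgcgtatttatgggactgaaagat
Hoxb8 (chr11:96143892-96143951, first 30 bases): catcccttcttcgaaatgtaaagcgaggac
Hoxc5 (chr15:102846969-102847028, first 30 bases): gtgtgtgtctaagttacccagacttttcta
The longest stretch that any of these 5 probes shares with a probe of another gene is 15 bases.

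A second set shows a pair of probes that lie where Hox genes are most alike. The homeobox is the stretch of DNA that encodes the homeodomain, and the helix of the homeodomain that touches the DNA is nearly the same in many Hox proteins. These probes are shown whole. Capitals mark matches on either strand to AAGATNTGG or to CAGGTNAAG, which are motifs of that stretch in which N is any base. At least 1 of them was found in 261 of all 41174 probes on the array (0.634%) and in 4 of the 50 Hox probes.
Hoxc12 (chr15:102768819-102768878): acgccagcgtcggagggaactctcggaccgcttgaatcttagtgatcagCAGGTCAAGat
Hoxd10 (chr2:74532280-74532339): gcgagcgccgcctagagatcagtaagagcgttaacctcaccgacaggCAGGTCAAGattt
Of the 4 Hox probes with a motif 1 was well above background on at least 1 array, against 34 of the other 46 Hox probes. The dim ones are of Hoxa9, Hoxc12 and Hoxd10, all of paralogue numbers 9 to 13. Outside HoxD only 3 of 10 genes of that range were detected, and several were dim by probes without a motif. The part of the motif in this contrast was not tested. None of the 5 higher genes is represented by a probe with either motif.

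The 2 arrays lay on 1 slide and carry the same scan date, and both had about 69% of spots well above background (69.0% on the array labelled MARVELD1 and 68.7% on the empty vector array). Probe intensities are given as the scanner program wrote them, without scaling. Differences are log2 values, MARVELD1 minus empty vector, after each array was scaled to its 75th percentile (703 on the array labelled MARVELD1 and 768 on the empty vector array). Below, dim means not well above background by the scanner program's flag. A gene was called detected when a probe of it was well above background on at least 1 array. Its brightest such probe represents it. The median difference of all 16532 detected genes was 0.19 with a middle range of -0.14 to 0.50, so differences are read beside that shift. For 178 probes printed many times and well above background on both arrays, the spread between spots corresponds to an SD of 0.40 for the difference of a probe with 1 spot. It was 0.67 for probes of intensity 30 to 100, 0.46 at 100 to 300, 0.34 at 300 to 1000 and 0.16 at 1000 to 10000. This spread is technical and holds nothing of the spread between cultures. All Hox probes were printed once except that of Hoxb1, which had 10 spots.

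Marveld1, the transfected gene, was not brighter on the array labelled with it. Its brighter probe read 6293 on the array labelled MARVELD1 and 8725 on the empty vector array, a difference of -0.34. The other probe read 126 on the array labelled MARVELD1 and 184 on the empty vector array, a difference of -0.42. Whether either probe reads the plasmid's insert is not known, so every direction below rests on the labels. The 10 fibroblast markers (such as Col1a1, Vim and Pdgfra) were all detected. Their summed intensity was 583332 on the array labelled MARVELD1 and 746924 on the empty vector array. By their brightest probes 3 of them (Col3a1, Pdgfrb and Fn1) were at least 2-fold lower. Among 6 other probes of these genes measured on both arrays, 3 were at least 2-fold lower (Col1a1, Thy1 and Fn1) and 0 higher. The lower Col1a1 probe read 7261 on the array labelled MARVELD1 and 24114 on the empty vector array. The second Col3a1 probe, at 86.9 on the array labelled MARVELD1 and 102 on the empty vector array, stayed within 2-fold. Of 7 epithelial markers 3 were detected, with a summed intensity of 546 on the array labelled MARVELD1 and 465 on the empty vector array, and the defining Epcam and Cdh1 were dim on both; Krt18 was at least 2.35-fold higher, with 78.7 on the array labelled MARVELD1 and 19.4 on the empty vector array. Detected markers of other cell types were 4 of 4 for endothelial, 5 of 5 for blood, 4 of 4 for neural and 2 of 4 for pluripotent cells. In that order, their summed intensities were 1242, 1749, 2691 and 262 on the array labelled MARVELD1. On the empty vector array they were 1768, 1337, 3294 and 210. By their brightest probes 0 passed 2-fold in any of these lists, and a dimmer probe of the endothelial marker Cdh5 differed by -1.74. In RNA from whole cultures, fewer cells of a kind and less RNA per cell cannot be told apart, and the part of the lower fibroblast markers in the Hox differences was not tested.

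Of the 38 Hox genes, 27 were detected. By the probes that represent them, 24 were measured on both arrays, 2 on the array labelled MARVELD1 alone and 1 on the empty vector array alone. At least 2-fold higher on the array labelled MARVELD1 were 5 genes of the 27 (Hoxd11, Hoxd12, Hoxd13, Hoxb8 and Hoxc5), and at least 2-fold lower were 0. Over all 16532 detected genes, 890 (5.38%) were that much higher and 581 (3.51%) that much lower. Hoxb8 and Hoxd13 were represented by probes well above background on the array labelled MARVELD1 alone. Another probe of Hoxb8 was well above background on both arrays. With a probe required to be well above background on both arrays, 3 of 25 Hox genes (Hoxd11, Hoxd12 and Hoxc5) were higher, beside 4.43% of all 15597 genes so measured. The median difference of the detected Hox genes was 0.24, close to the 0.19 of all genes, and 15 of the 27 lay above that of all genes. Apart from the 5, the Hox genes measured on both arrays lay between -0.61 and 0.93, and Hoxb13, dim on the array labelled MARVELD1, has only a bound. The split of all genes into higher and lower moved with the scaling. It was 890 higher and 581 lower as given, 653 and 715 after scaling to the array median, 666 and 698 after quantile normalization, 607 and 755 after loess, 307 and 421 after normexp background correction with quantile normalization, and 479 and 617 in the authors' deposited table. The same 5 Hox genes passed 2-fold under median, quantile and loess scaling, where the median of all genes lay at 0.08, 0.08 and 0.04.

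**Figure D1:**
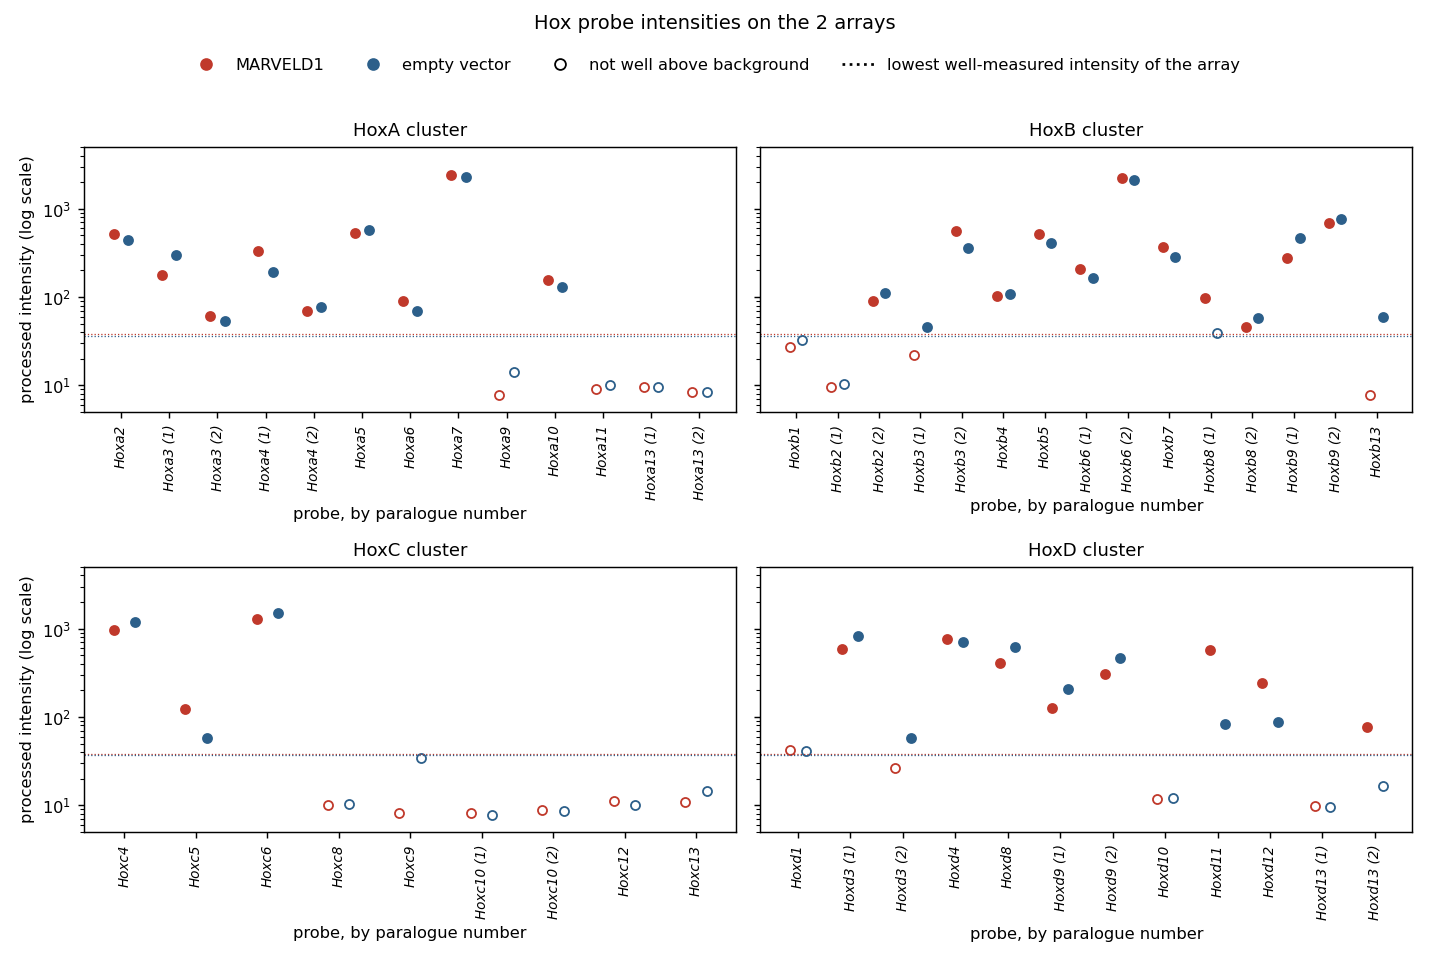
Processed intensity (log axis) of the Hox probes on the array labelled MARVELD1 (red) and the empty vector array (blue), by cluster and paralogue number. Open circles were not well above background and dotted lines mark the lowest well-measured intensity of each array; Hoxd11, Hoxd12 and 1 Hoxd13 probe show the widest gaps among filled red circles, and all HoxC probes above paralogue 6 are open on both arrays.

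Posterior HoxD genes, which pattern the forearm, wrist and digits of the developing limb, made up 3 of the 5 higher genes. Hoxd11, which with its HoxA paralogue shapes the forearm bones and the kidney, read 578 on the array labelled MARVELD1 and 82.4 on the empty vector array. It was well above background on both, and the scaled difference was 2.94, or 7.67-fold higher on the array labelled MARVELD1. Among all 16532 detected genes 27 had a larger difference, and the spot SD was 0.46 at intensities of 100 to 300 and 0.67 at 30 to 100, where the empty vector reading lay.

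Hoxd12, the next gene toward the posterior end and a digit-patterning gene, read 242 on the array labelled MARVELD1 and 88.5 on the empty vector array. Both values were well above background, and the difference was 1.58, or 2.98-fold higher; 203 genes of all had a larger one. It was more than 2 times either of those spot SDs.

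Hoxd13, the most posterior HoxD gene and the one whose mutations alter the digits, had a pair of probes 1.243 kb apart. The brighter read 76.9 on the array labelled MARVELD1 and 16.6 on the empty vector array, where it was not well above background, so the gene was at least 2.29-fold higher (log2 bound 1.20). The other probe was dim on both arrays, with 9.71 on the array labelled MARVELD1 and 9.51 on the empty vector array. The call for Hoxd13 thus rests on 1 probe that was dim on the empty vector array. The spot SD of 0.67 is for probes of intensity 30 to 100 that were not dim. The empty vector reading lay below that range, where no spot SD was obtained.

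The difference ended between Hoxd11 and Hoxd9. Hoxd10, whose probe lies 24.275 kb from the first Hoxd13 probe, was dim on both arrays, at 11.8 on the array labelled MARVELD1 and 12.1 on the empty vector array. Hoxd9, a limb and spinal motor neuron gene, was slightly lower by both its probes. They read 309 and 126 on the array labelled MARVELD1, against 465 and 206 on the empty vector array, differences of -0.46 and -0.58. Both probes of Hoxd9 thus lay on the other side of 0 from its posterior neighbours, without reaching 2-fold, and by less than 2 spot SDs.

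Toward the anterior end of HoxD, values stayed within 2-fold. Hoxd8 read 404 on the array labelled MARVELD1 and 617 on the empty vector array, a difference of -0.48. Hoxd4, a gene of the hindbrain and neck vertebrae, read 757 on the array labelled MARVELD1 and 698 on the empty vector array, a difference of 0.24. Hoxd3, which patterns the first vertebrae, read 585 on the array labelled MARVELD1 and 825 on the empty vector array by its brighter probe, a difference of -0.37. Its other probe was well above background on the empty vector array alone, with 26.1 on the array labelled MARVELD1 and 57.1 on the empty vector array, at least 1.37-fold lower. Hoxd1 was dim on both arrays, at 41.9 on the array labelled MARVELD1 and 40.9 on the empty vector array. Along the cluster, then, the 3 genes within 14.023 kb of the Hoxd13 end were higher and the 4 other detected genes ranged from -0.48 to 0.24.

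**Figure D2:**
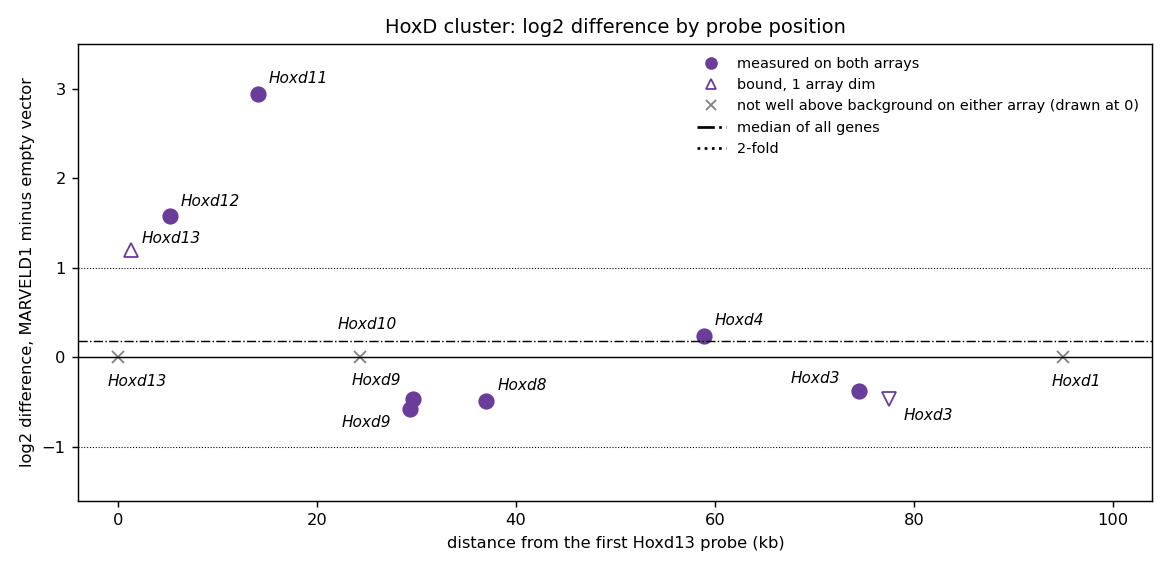
Log2 difference (MARVELD1 minus empty vector) of each HoxD probe against its distance in kb from the first Hoxd13 probe. Filled circles were measured on both arrays, open triangles are bounds and crosses are probes dim on both arrays, drawn at 0; Hoxd13, Hoxd12 and Hoxd11 lie above the dotted 2-fold line at 1.20, 1.58 and 2.94, and no probe beyond 14.023 kb does.

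The promoters of these 3 genes are given because the genes differed together; the sequences are those of RefSeq on build GRCm38.p6, from 250 bases before the start of transcription to 50 after it. Capitals mark every match, on either strand, to a site for HOX with its partner PBX (TGATTNAT), a CDX site (TTTATNG), the CCAAT box (CCAAT) or the TATA box (TATAAA). The TATA capitals in Hoxd13 cover 2 overlapping matches, 1 on each strand. Hoxd11 has a pair of promoters in the table.
Hoxd13 promoter (chr2:74667975-74668274, plus strand): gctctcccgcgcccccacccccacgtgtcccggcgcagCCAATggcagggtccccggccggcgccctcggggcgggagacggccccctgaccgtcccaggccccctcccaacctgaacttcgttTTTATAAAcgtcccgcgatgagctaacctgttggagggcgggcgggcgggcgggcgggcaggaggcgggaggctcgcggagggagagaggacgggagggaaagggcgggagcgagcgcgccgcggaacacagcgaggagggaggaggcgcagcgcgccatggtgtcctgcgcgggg
Hoxd12 promoter (chr2:74674763-74675062, plus strand): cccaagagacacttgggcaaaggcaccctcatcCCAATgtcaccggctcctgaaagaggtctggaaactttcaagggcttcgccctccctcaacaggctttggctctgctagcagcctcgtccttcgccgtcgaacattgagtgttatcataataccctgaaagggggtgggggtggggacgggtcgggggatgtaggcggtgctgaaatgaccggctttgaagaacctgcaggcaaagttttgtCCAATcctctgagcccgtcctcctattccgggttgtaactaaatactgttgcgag
Hoxd11 promoter, first (chr2:74679308-74679607, plus strand): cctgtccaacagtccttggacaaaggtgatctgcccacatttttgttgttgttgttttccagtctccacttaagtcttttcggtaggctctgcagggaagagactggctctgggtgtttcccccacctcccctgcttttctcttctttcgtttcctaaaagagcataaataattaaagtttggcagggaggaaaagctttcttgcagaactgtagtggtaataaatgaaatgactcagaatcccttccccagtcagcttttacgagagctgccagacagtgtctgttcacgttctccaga
Hoxd11 promoter, second (chr2:74682073-74682372, plus strand): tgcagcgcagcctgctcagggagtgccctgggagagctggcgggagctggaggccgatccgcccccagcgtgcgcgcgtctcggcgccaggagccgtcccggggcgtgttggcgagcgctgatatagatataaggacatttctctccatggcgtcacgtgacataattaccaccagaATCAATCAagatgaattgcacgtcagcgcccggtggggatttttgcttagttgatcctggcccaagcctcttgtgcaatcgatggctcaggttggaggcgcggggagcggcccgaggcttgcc
The Hoxd13 promoter holds 37 CpG dinucleotides and the Hoxd12 promoter 13. The first Hoxd11 promoter holds 4 and no match to any of the motifs, while the second holds 25 and 1 PBX and HOX match. Of all 32851 mouse promoters in the table, 3.22% hold that motif, 10.9% the CDX motif, 37.4% the CCAAT box and 13.6% the TATA box. Of the 24 promoters found for 22 of the Hox genes, 2, 2, 15 and 4 hold them, in the same order, and the median promoter had 14.5 CpG against 7 over all promoters. No motif was found in the promoters of all 3 genes, and a match is only a description of the letters.

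Hox genes of paralogue numbers 9 to 13 outside HoxD were mostly dim. Of 10 such genes 3 were detected and 0 passed 2-fold in either direction. Hoxa10, a gene of the lumbar region and the uterus, read 155 on the array labelled MARVELD1 and 131 on the empty vector array, a difference of 0.37. Hoxb9, of the thorax and mammary gland, had a pair of probes that read 688 and 275 on the array labelled MARVELD1, against 771 and 462 on the empty vector array, differences of -0.04 and -0.62. Hoxb13, a gene of the tail and the prostate, read 7.77 on the array labelled MARVELD1, where it was not well above background, and 59.0 on the empty vector array. It was thus at least 1.42-fold lower (log2 bound -0.51), and it was the only member measured on the empty vector array alone. Hoxa9, Hoxa11, Hoxa13, Hoxc9, Hoxc10, Hoxc12 and Hoxc13 were dim on both arrays. Their brightest readings were 11.2 on the array labelled MARVELD1 (Hoxc12) and 33.9 on the empty vector array (Hoxc9). So among the posterior genes, the HoxA paralogues Hoxa11 and Hoxa13 stayed dim on both arrays while Hoxd11 was measured on both.

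Among the central genes, paralogue numbers 5 to 8, 10 of 11 were detected and 2 were at least 2-fold higher. Hoxb8, a thoracic gene also known for keeping blood progenitors immature, gave opposite answers by its 2 probes. The represented probe read 98.9 on the array labelled MARVELD1 and 39.5 on the empty vector array, where it was not well above background, and so was at least 2.73-fold higher (log2 bound 1.45). The other probe, 2564 bases away and well above background on both arrays, read 46.3 on the array labelled MARVELD1 and 57.9 on the empty vector array, a difference of -0.20. In the authors' deposited table, which holds only that other probe, the log2 ratio was -0.31. Hoxb8 is therefore a call of 1 probe whose sign the second probe does not share.

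Hoxc5, a gene of the neck and upper thorax, read 123 on the array labelled MARVELD1 and 57.2 on the empty vector array. It was well above background on both arrays, and the difference was 1.24, or 2.35-fold higher. The spot SD at intensities of 30 to 100 was 0.67, so the difference was less than 2 such SDs, whereas those of Hoxd11 and Hoxd12 were more than 2.

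The other central genes lay within 2-fold. Hoxa7, which patterns thoracic vertebrae, read 2430 on the array labelled MARVELD1 and 2287 on the empty vector array, a difference of 0.21. Hoxb6, a gene of the thorax and limb bud, read 2206 on the array labelled MARVELD1 and 2117 on the empty vector array by its brighter probe, a difference of 0.19. Hoxc6, of the thorax and mammary gland, read 1270 on the array labelled MARVELD1 and 1497 on the empty vector array, a difference of -0.11. Hoxa7 and Hoxb6 were close to the general median of 0.19. Hoxc6 lay below it, near the lower end of the middle range of all genes at -0.14. Hoxa5, needed for the lung, differed by 0.01, Hoxa6 by 0.47, Hoxb5, a gene of the gut's nerve cells, by 0.49 and Hoxb7 by 0.52. Hoxd8 was given above, and Hoxc8, the member of this range that was not detected, read 10.1 on the array labelled MARVELD1 and 10.4 on the empty vector array.

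Anterior genes, paralogue numbers 1 to 4, were detected in 10 of 12 cases, and 0 passed 2-fold. Hoxc4 read 961 on the array labelled MARVELD1 and 1177 on the empty vector array, a difference of -0.17. Hoxa2, which sets the identity of the second pharyngeal arch, differed by 0.36, Hoxb2, of the facial motor nerve, by -0.20 and Hoxb4, a gene of blood stem cells, by 0.05. These genes, with Hoxd3 and Hoxd4 above, lay between -0.37 and 0.36.

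A further 3 anterior genes had probes that did not share a sign. Hoxa4 came nearest to 2-fold below it: its brighter probe read 333 on the array labelled MARVELD1 and 190 on the empty vector array, a difference of 0.93. Its other probe read 68.9 on the array labelled MARVELD1 and 76.9 on the empty vector array, a difference of -0.03. Hoxa3, needed for the thymus and parathyroid, read 179 on the array labelled MARVELD1 and 297 on the empty vector array by its brighter probe, the lowest difference among Hox genes measured on both arrays at -0.61. Its other probe differed by 0.33, with 61.2 on the array labelled MARVELD1 and 53.2 on the empty vector array. Hoxb3, a hindbrain gene, differed by 0.78 by a probe that read 561 on the array labelled MARVELD1 and 356 on the empty vector array. Its homeobox probe was well above background on the empty vector array alone, with 22.1 on the array labelled MARVELD1 and 45.3 on the empty vector array, at least 1.09-fold lower. Hoxb1 and Hoxd1 were the anterior genes not detected. Over its 10 spots Hoxb1 had a median of 26.8 on the array labelled MARVELD1 (8 spots used, 0 well above background) and 36.6 on the empty vector array (10 used, 3 well above background).

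By cluster, HoxA had 8 of 11 genes detected, with a median difference of 0.36 and 0 past 2-fold. HoxB had 9 of 10 detected, with a median of 0.19 and 1 higher. HoxC had 3 of 8 detected, with a median of -0.11 and 1 higher. HoxD had 7 of 9 detected, with a median of 0.24 and 3 higher. HoxD thus held the most members past 2-fold, although its median was near that of all Hox genes. Without the 5 posterior HoxD genes, 23 of 33 genes were detected, 2 were higher, 0 lower, and the median was 0.21.

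**Figure D3:**
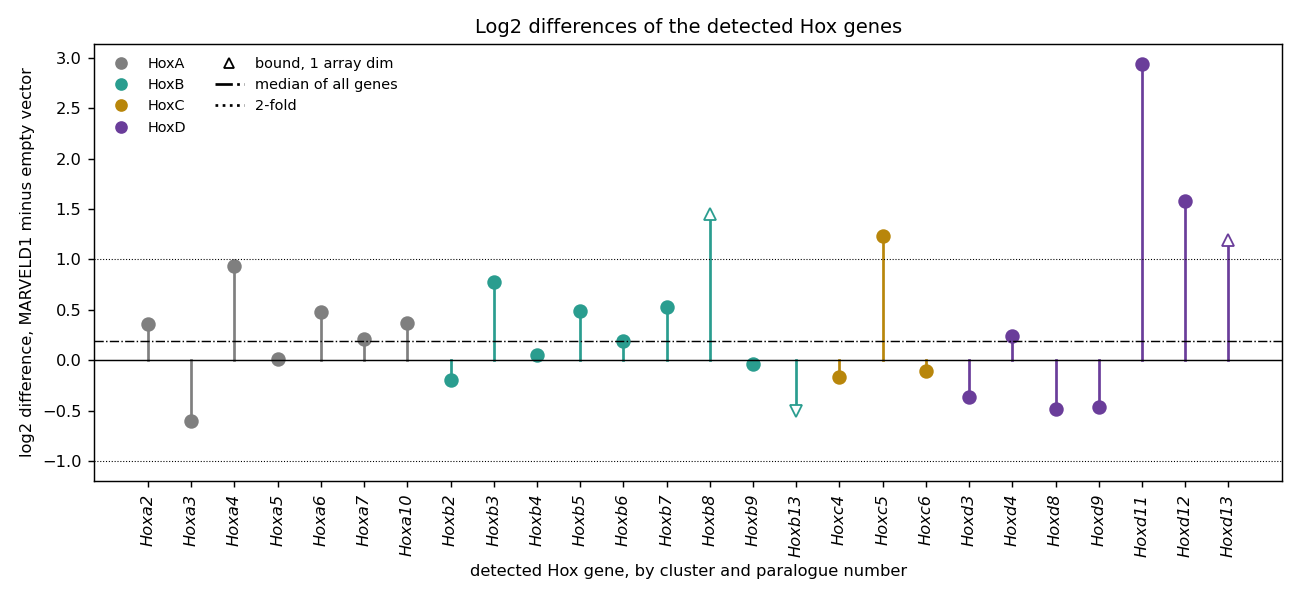
Log2 difference (MARVELD1 minus empty vector) of detected Hox genes, ordered by cluster and paralogue number. Open triangles are bounds for genes whose representing probe was dim on 1 array. Dotted lines mark 2-fold and the dash-dotted line the median of all genes at 0.19. The 5 genes above the upper dotted line are Hoxb8, Hoxc5, Hoxd11, Hoxd12 and Hoxd13, and none lies below the lower one.

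A pair of probes was on the array for 12 of the 38 genes, which gives a check of a difference within a gene. Both probes were detected for 8 of them, 1 probe for 2 and none for 2. In 5 genes both probes were measured on both arrays, and in 2 of these (Hoxa3 and Hoxa4) the probes differed in sign. Hoxb6 (0.19 and 0.48), Hoxb9 (-0.04 and -0.62) and Hoxd9 (-0.46 and -0.58) kept their sign. Hoxd11, Hoxd12 and Hoxc5 had 1 probe each, so that check was not possible for them.

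Under other processing, Hoxd11 lay between 2.23 and 2.94 and Hoxd12 between 1.02 and 1.58 over 9 settings, past 2-fold in all 9. Hoxc5 passed in 8 of 9 (lowest 0.66) and Hoxd13 in 6 of the 7 that gave it a value (lowest 0.76), and in both the exception was normexp background correction with quantile normalization. Hoxb8 passed in 5 of 9, from -0.31 to 1.45. Not all settings are separate checks. Hoxd11, Hoxd12 and Hoxc5 have no second probe and were measured on both arrays. Their values therefore could not change with no filter on dim probes, with both arrays required or with probes averaged. Array median scaling moves every value by the same amount, as the authors' deposited table does for nearly all probes.

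**Figure D4:**
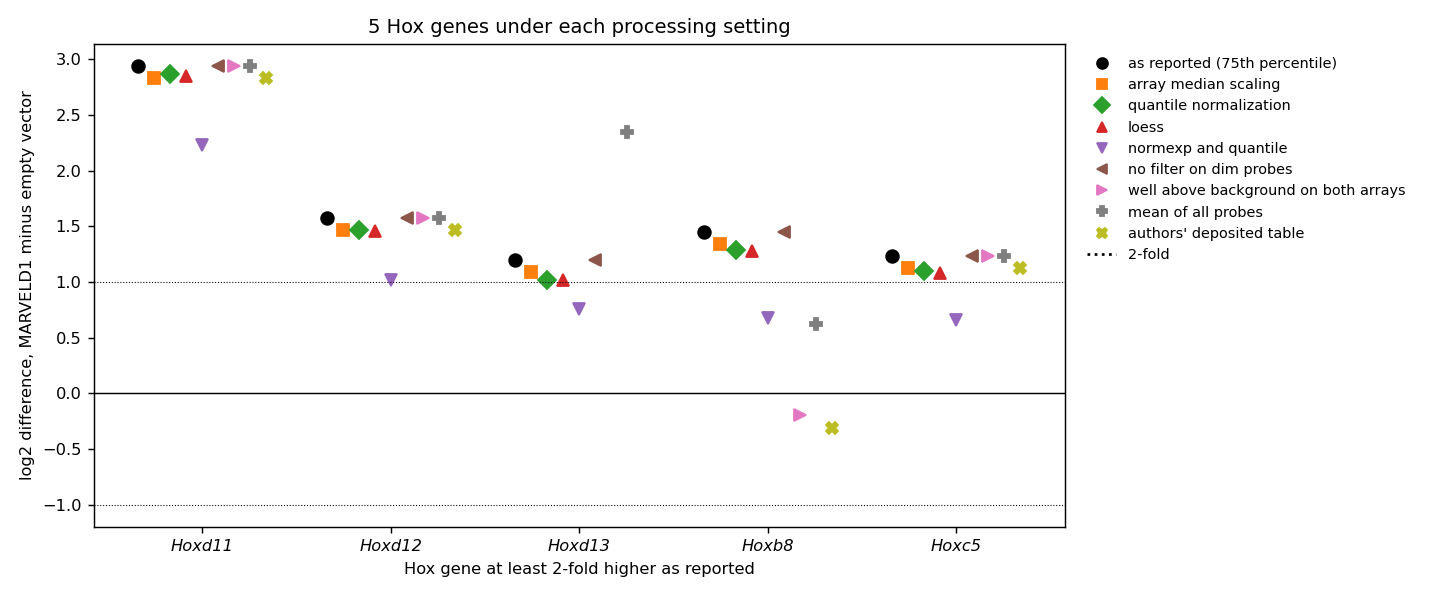
Log2 difference (MARVELD1 minus empty vector) of the 5 higher Hox genes under each of 9 processing settings, 1 symbol per setting, with 2-fold as dotted lines. All symbols of Hoxd11 (2.23 to 2.94) and Hoxd12 (1.02 to 1.58) lie above 2-fold, while those of Hoxb8 run from -0.31 to 1.45.

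HOX proteins bind DNA with TALE-class cofactors, and all 9 such genes examined were detected, 1 higher and 1 lower by at least 2-fold. Meis1, a partner of HOX proteins in blood cells, read 182 on the array labelled MARVELD1 and 10.1 on the empty vector array, where it was not well above background, and so was at least 5.44-fold higher. Pbx3 read 272 on the array labelled MARVELD1 and 1462 on the empty vector array by its brighter probe, a difference of -2.30. Its other probe, not well above background on the empty vector array, read 195 on the array labelled MARVELD1 and 38.6 on the empty vector array, a measured difference of 2.46, so the probes of Pbx3 did not share a sign. Pbx2 was at 4503 on the array labelled MARVELD1 and 3214 on the empty vector array, a difference of 0.61. Its other probe did not share the sign, with 78.8 on the array labelled MARVELD1 and 168 on the empty vector array, a difference of -0.97.

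Genes of the complexes that keep Hox clusters silent or active were nearly all within 2-fold by their brightest probes, which the counts here use. All 11 genes of Polycomb repressive complex 2, which methylates lysine 27 of histone H3, were detected and 0 passed 2-fold in either direction; its catalytic subunit Ezh2 read 2241 on the array labelled MARVELD1 and 1951 on the empty vector array, a difference of 0.33. Of 16 genes of Polycomb repressive complex 1, 15 were detected and 1 was higher, Pcgf3, a ring-finger subunit, with 646 on the array labelled MARVELD1 and 346 on the empty vector array, 2.04-fold. Its second probe differed by 0.32. The 10 trithorax-group and H3 lysine 27 demethylase genes were all detected with 0 past 2-fold; Kmt2a, the methyltransferase known for keeping Hox genes active, read 4071 on the array labelled MARVELD1 and 3981 on the empty vector array, a difference of 0.16. The list medians were 0.22 for complex 2, 0.20 for complex 1 and 0.22 for the trithorax list, beside 0.19 for all genes. Some dimmer probes of these genes had measured differences past 2-fold. Those measured on both arrays were a probe of Rbbp4 at -2.82 (94.4 on the array labelled MARVELD1 and 729 on the empty vector array) and a probe of Kmt2b at -1.15. Those dim on 1 array had measured differences of 2.82 for a further Rbbp4 probe, -3.04 for Aebp2, -2.60 for Bmi1 and 1.62 for Phc3. The probes of Rbbp4 thus did not share a sign. These values were taken without the bound used for the Hox genes, so they are not calls of 2-fold. The Phc3 probe read 65.0 on the array labelled MARVELD1 and 23.2 on the empty vector array. The latter is below that array's lowest well-measured intensity of 36.6.

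Retinoic acid, a vitamin A derivative, switches on anterior Hox genes. Of 16 genes of its pathway 14 were detected, 1 higher and 1 lower by their brightest probes, with a median of 0.22. Of 7 other probes of these genes measured on both arrays, 4 were at least 2-fold lower. The synthesizing enzyme Aldh1a3 read 106 on the array labelled MARVELD1 and 47.8 on the empty vector array, 2.43-fold higher. This difference of 1.28 was less than 2 of the spot SDs of 0.67 at intensities of 30 to 100, where the empty vector reading lay. A related enzyme, Aldh1a1, read 122 on the array labelled MARVELD1 and 482 on the empty vector array, 3.62-fold lower. Members of this enzyme family thus lay on both sides of 2-fold.

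Genes beside the clusters and other positional genes were mostly within 2-fold. Evx2, the homeobox gene next to Hoxd13, read 492 on the array labelled MARVELD1 and 545 on the empty vector array, a difference of -0.02. Lnpk, which lies beyond Evx2 and encodes a protein of endoplasmic reticulum junctions, read 924 on the array labelled MARVELD1 and 1327 on the empty vector array by its brightest probe, a difference of -0.39. Its other 2 probes differed by -1.09 each. So Evx2 and Lnpk, on the Hoxd13 side of the cluster, were not higher on the array labelled MARVELD1. Mtx2, on the Hoxd1 side, read 10753 on the array labelled MARVELD1 and 9993 on the empty vector array, a difference of 0.23. Of the 14 flanking genes of all 4 clusters, 14 were detected and 0 passed 2-fold by their brightest probes. Of 14 other probes of these genes measured on both arrays 3 were at least 2-fold lower, those of Lnpk and 1 of Hnrnpa3 (58.5 on the array labelled MARVELD1 and 211 on the empty vector array, a difference of -1.73). Of 13 cluster-end and ParaHox homeobox genes, 6 were detected and 0 passed. Cdx1, Cdx2 and Cdx4, of the Cdx genes that act on central Hox genes, were among those not detected.

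Among 28 other transcription factors of limb and body position, 23 were detected and 1 passed 2-fold by its brightest probe. Of 11 other probes of these genes measured on both arrays 1 was higher (Tbx3, 1.06) and 1 lower (Prrx1, -1.94). The gene past 2-fold was Six2, a factor of kidney progenitors, with 92.2 on the array labelled MARVELD1 and 24.5 on the empty vector array, where it was not well above background, at least 2.75-fold higher. Twist2, a mesenchymal factor, was at 10838 on the array labelled MARVELD1 and 15585 on the empty vector array, a difference of -0.40. The list median was 0.03, so these positional genes as a group did not lie above the median of all genes. No probe was matched by accession to any of the 32 other transcripts that RefSeq places inside the clusters, among them antisense RNAs and microRNAs, and they were not analysed here.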

How the data were processed

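RNA of NIH3T3 cells was measured on 2 single-colour Agilent arrays, 1 per group, grouped by the labels alone. Per the file headers, the deposited values are spot intensities read by Agilent Feature Extraction 9.5.3.1 (the program is also in the submitters' processing notes). Its processed signal has the background removed and slide-wide trends taken out, and very low readings carry a surrogate value. The authors also deposited a normalized intensity table. It equals the processed intensity divided by 1 factor per array for 99.8% of its 26829 probes compared on the array labelled MARVELD1 and 99.7% on the empty vector array, within a tolerance of 1%. The factors are 123 on the array labelled MARVELD1 and 125 on the empty vector array, and the column medians are 2.94 on the array labelled MARVELD1 and 3.11 on the empty vector array. The sources used here name no later step of the authors.

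Outlier spots (223 on the array labelled MARVELD1 and 116 on the empty vector array) were left out, and 0 spots were saturated on either array. Each array's 75th percentile was subtracted from its log2 processed intensity, and spots of 1 probe were averaged. A probe counted as measured on an array when a share of at least 0.5 of its spots carried the well-above-background flag. Where 1 array was dim, the bright array's value was set against the higher of the dim value and the lowest well-measured value of the dim array, whose intensity was 38.1 on the array labelled MARVELD1 and 36.6 on the empty vector array. Probes were named through RefSeq GRCm38.p6, used for names and promoters only: 24802 by accession, 6030 by symbol, 1808 by an older name, and 8444 stayed unnamed. All 50 Hox probes kept their array name. A gene was represented by its brightest measured probe.

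With 1 array per group, 2-fold is a limit of size and the number of arrays limits the precision. The rule for named genes gives both values for every Hox gene past 2-fold, for the 8 brightest and for those whose probes differ in sign, and from each related list the members past 2-fold and the brightest; other genes given as examples (Ezh2, Kmt2a, Evx2, Lnpk, Mtx2 and the remaining Hox genes) were added after their values were seen. Of the genes this rule selects, 2 are not reported here. The members and lists were chosen with earlier results of these data known. Python 3.11.15, numpy 2.4.6, pandas 2.3.3, R 4.3.3 and limma 3.58.1 were used, the last for quantile, loess (span 0.3) and normexp (offset 50) alternatives. Other alternatives were the array median, the filter on dim probes, the mean of probes, the authors' table, and limits of 1.5-fold and 3-fold.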

Additional observations from a re-analysis of the deposited data

How the results depend on the processing

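With 1 array per group, no replicate error can be given and no array can be left out. No paired analysis was possible because each group has 1 array and no result comes from a test. Under 8 alternatives to the processing, 23 of 27 detected Hox genes kept their sign throughout. The exceptions were Hoxa5, Hoxb3, Hoxb4 and Hoxb8. The alternatives on dim probes and on averaging cannot change a gene that has no second probe and was measured on both arrays. The count of Hox genes at least 2-fold higher was 5 as reported. It was 2 with normexp and quantile normalization, 3 when a probe had to be well above background on both arrays, 3 in the authors' deposited table, 1 at a limit of 3-fold, 4 when probes of a gene were averaged and 7 at a limit of 1.5-fold. The count at least 2-fold lower was 0 as reported and 1 with no filter on dim probes (the dim Hoxc9), 1 when probes of a gene were averaged, where no bounds are set (Hoxb13), and 1 at a limit of 1.5-fold (Hoxa3). These counts are out of 27 Hox genes, except 25 with both arrays required, 26 in the authors' deposited table and 38 with no filter. Of all genes, 1.86% were higher with normexp and quantile normalization, 4.43% with both arrays required and 3.07% in the authors' deposited table. With probes averaged, 5.77% of all genes were higher and 4.20% lower, and with no filter 3.42% were lower. At 1.5-fold, 19.4% of all genes were higher and 8.86% lower, and at 3-fold these were 1.21% and 1.28%. The median Hox difference of 0.24 was 0.14 with array median scaling, 0.14 with normexp and quantile normalization, 0.14 with no filter on dim probes and 0.11 in the authors' deposited table, while the median of all genes was 0.08, 0.05, 0.18 and 0.07 under these. Hoxb8 reversed to -0.20 when both arrays had to be well above background and to -0.31 in the authors' deposited table, because both settings leave its other probe alone. For the remaining shifts the cause was not tested. Dim probes also limit these data: 11 of 38 Hox genes were not measured on either array, so a difference in them was not detectable.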
